A study of Homo sapiens with 4 samples.

Results

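AXIN2, DKK1 and LGR4 are 3 genes of the Wnt pathway, out of 2897 genes in the deposited expression table. They were chosen by gene symbol with their fall under isorhamnetin (ISO) already known from the values of these same 4 libraries, so their change between ISO and control is given as a description, with no test. The 4 libraries came from AGS-1 and HGC-27, human lines grown from gastric cancers and labelled wild type. Each line gave 1 untreated library and 1 library treated with ISO at 50 μM for 24 h according to the labels, while the study's text gives a lower dose for its sequencing. ISO is a flavonol, a methylated relative of quercetin found in several plants. The labels do not say whether the untreated cells received the solvent. The study's text speaks of duplicates, but the labels and the table give 1 library per condition, and whether a library pools cultures is not given in the sources used here. The spread between cultures could therefore not be measured, and every interval below describes counting error alone.

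Wnt proteins are secreted signals that bind Frizzled receptors and the co-receptors LRP5 and LRP6 at the cell surface. Without them, a destruction complex built on Axin and APC marks β-catenin for degradation. With them, β-catenin reaches the nucleus and turns on target genes together with TCF and LEF factors. The pathway maintains stem cells of the gastrointestinal epithelium and is often altered in its cancers. AXIN2 encodes a scaffold of the destruction complex and is itself a target of β-catenin, so it acts as a negative feedback. DKK1 encodes a secreted inhibitor that binds LRP5 and LRP6 and is also known as a target of the pathway. LGR4 encodes a receptor for R-spondins, which strengthen Wnt signaling by lowering the turnover of Frizzled receptors.

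The genes lie on different chromosomes of GRCh38. AXIN2 (ENSG00000168646) spans chr17:65528563-65561648 on the minus strand in the table, DKK1 (ENSG00000107984) chr10:52314281-52318042 on the plus strand, and LGR4 (ENSG00000205213) chr11:27365961-27472790 on the minus strand. GENCODE 29 gives them at most 11, 4 and 18 exons per transcript, and the table gives lengths of 5227, 2221 and 6355 bases. A protein-coding locus on the same strand, AC004805.1, shares 25.2% of the exonic bases of AXIN2. The antisense gene PRKG1-AS1 shares 9.61% of those of DKK1. The antisense gene AC100771.2 lies across the start of LGR4 and shares 0 exonic bases with it. How fragments in shared stretches were assigned, and whether strand was used, is not given in the sources used here, so part of the AXIN2 and DKK1 values is uncertain.

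The 250 bases before the start site are shown for DKK1 and LGR4, whose levels the report follows, and for SP5, a zinc-finger transcription factor and β-catenin target described further on. The sequences are from RefSeq on GRCh38.p14, written 5′ to 3′ on the strand of each gene. Capitals mark matches to the TCF and LEF site, searched on both strands. Its 4 forms were CTTTGAA with CTTTGAT as its near form, and CTTTGTA with CTTTGTT as the other pair. The DKK1 window is chr10:52314031-52314280, the LGR4 window chr11:27472791-27473040 and the SP5 window chr2:170715087-170715336.
DKK1: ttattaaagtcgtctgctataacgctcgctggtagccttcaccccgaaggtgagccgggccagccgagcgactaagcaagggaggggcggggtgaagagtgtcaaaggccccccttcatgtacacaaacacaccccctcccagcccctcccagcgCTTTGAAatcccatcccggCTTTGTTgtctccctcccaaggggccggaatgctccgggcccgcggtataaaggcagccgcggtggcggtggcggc
LGR4: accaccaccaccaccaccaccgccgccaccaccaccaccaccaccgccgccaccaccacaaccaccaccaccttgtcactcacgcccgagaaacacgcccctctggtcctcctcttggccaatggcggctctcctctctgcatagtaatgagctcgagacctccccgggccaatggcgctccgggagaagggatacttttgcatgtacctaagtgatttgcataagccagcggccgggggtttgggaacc
SP5: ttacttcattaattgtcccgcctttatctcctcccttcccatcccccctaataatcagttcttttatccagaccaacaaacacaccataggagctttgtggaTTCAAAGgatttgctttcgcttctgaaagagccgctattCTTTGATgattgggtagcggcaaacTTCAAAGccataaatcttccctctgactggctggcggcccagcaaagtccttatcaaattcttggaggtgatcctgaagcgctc

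The DKK1 window held 2 matches, CTTTGAA beginning 95 bases and CTTTGTT beginning 76 bases before the start. The SP5 window held 3 matches, and the LGR4 window held 0. Among the 34 other Wnt genes of the table, 26 had windows, and 4 of these genes had a match, in 10.3% of their 39 windows. Of 35116 such windows in the RefSeq table, 12.0% held at least 1 match and 1.21% at least 2. The shared core CTTTG, on either strand, occurred 3 times in the DKK1 window, 5 times in the SP5 window and 0 times in the LGR4 window, and 2.83% of all windows held at least 3. A match is a stretch of letters and not a measured binding site.

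The library totals were between 15235004 and 20199425 fragments, recovered from the table as described under processing. Which of the sequenced fragments these totals count is not given in the sources used here. FPKM, the fragments of a gene scaled to its length and to the library total, compares levels between genes and libraries. AXIN2 was counted with 1226 to 7871 fragments per library, DKK1 with 1113 to 5585 and LGR4 with 859 to 2047, so all 3 lay far above the counting limit. The 2 lines were of different kinds by their markers. Of the epithelial markers, EPCAM, KRT8, KRT18 and KRT19 lay between 167 and 598 FPKM in AGS-1 and at or below 2.19 FPKM in HGC-27. VIM, a marker of the mesenchymal state, had 0.697 and 0.860 FPKM in AGS-1 and 306 and 249 FPKM in HGC-27. Of the markers of stromal and blood cells, COL1A1 and COL3A1 reached 348 and 427 FPKM in the HGC-27 control, and LYZ reached 594 FPKM in the AGS-1 control and is listed at 0 in HGC-27.

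AXIN2 fell by about the same proportion in both lines in the deposited scaling, and by less in AGS-1 with the other scalings given below. It had 98.8 FPKM untreated and 48.4 FPKM under ISO in AGS-1, against 29.1 FPKM untreated and 13.7 FPKM under ISO in HGC-27. Its level was thus lower with ISO in each line, and both AGS-1 libraries stood above both HGC-27 libraries. Under ISO it was at 48.9% of the control in AGS-1 (95% counting interval 47.1 to 50.8%) and at 47.2% in HGC-27 (44.1 to 50.4%). The log2 ratio of FPKM + 1, ISO over control, was −1.02 in AGS-1 (counting SE 0.0275) and −1.03 in HGC-27 (0.0459). The added 1 slightly understates such ratios.

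DKK1 fell most of the 3 in AGS-1. It had 165 FPKM untreated and 31.4 FPKM under ISO in AGS-1, against 78.2 FPKM untreated and 36.0 FPKM under ISO in HGC-27. The AGS-1 control was the highest of the 4 libraries and AGS-1 with ISO the lowest, so the order of the lines turned under ISO. ISO left 19.0% of the control level in AGS-1 (17.8 to 20.3%) and 46.0% in HGC-27 (43.2 to 49.0%). The log2 ratios were −2.36 (counting SE 0.0461) and −1.10 (0.0450). Among the 2883 genes whose mean reached 1 FPKM, the ratio of DKK1 was the 5th lowest in AGS-1 and the 21st lowest in HGC-27.

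LGR4 was the least abundant of the 3. It had 21.1 FPKM untreated and 18.5 FPKM under ISO in AGS-1, against 15.7 FPKM untreated and 7.92 FPKM under ISO in HGC-27. The 2 AGS-1 libraries lay close together, and HGC-27 with ISO stood below the other 3 libraries. It kept 87.4% of the control level in AGS-1 (82.1 to 93.1%) and 50.4% in HGC-27 (46.4 to 54.6%). The log2 ratios were −0.18 (counting SE 0.0439) and −0.91 (0.0531). The ratio of LGR4 ranked 37th from the lowest of the 2883 genes in HGC-27 and 1780th in AGS-1, while that of AXIN2 ranked 27th and 184th.

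**Figure D1:**
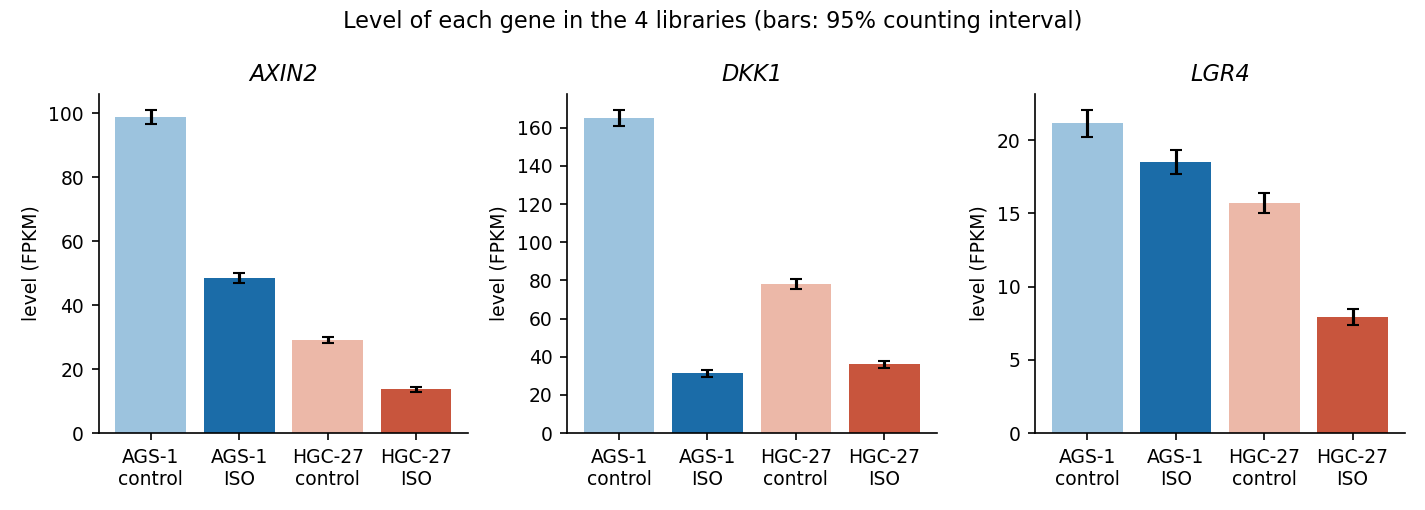
Level in FPKM (y axis, from 0, with its own scale for each gene) of AXIN2, DKK1 and LGR4 in the 4 libraries, with 95% counting intervals as bars. AXIN2 and DKK1 were lower with ISO in both lines, DKK1 from 165 to 31.4 FPKM in AGS-1, and LGR4 most clearly in HGC-27, from 15.7 to 7.92 FPKM.

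AXIN2 and DKK1 fell at least 2-fold in both lines and LGR4 in neither, and 9 genes of the table did so in both. Of all 2897 genes, 6.63% fell that far in AGS-1 and 0.932% did in HGC-27. Since the 3 genes were chosen on this contrast, nothing is read from their count. In bulk RNA, fewer cells that express a gene and less RNA per cell cannot be told apart.

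The size of the changes depended on how the libraries were scaled, more so in AGS-1. All genes of the table had a median log2 ratio of −0.29 for AGS-1 and −0.11 for HGC-27, and relative to it AXIN2 lay at −0.73 and −0.93, DKK1 at −2.07 and −0.99, and LGR4 at 0.10 and −0.80. Median-of-ratios scaling sets the typical level between libraries, here that of the listed genes above 0 in every library and not of all genes. It gave AXIN2 −0.74 for AGS-1 and −0.97 for HGC-27. Both ratios of FPKM + 1 fell short of 2-fold, the one for HGC-27 narrowly, and the added 1 understates it. The same scaling turned LGR4 to 0.08 in AGS-1. It left DKK1 past 2-fold in both lines, at −2.08 and −1.04. The listed genes held 78.5% of the fragments of the AGS-1 control and 64.4% under ISO. The epithelial markers of the list also moved in AGS-1, with log2 ratios between −0.91 and −0.57. The part of these shifts in the results was not tested. The share of fragments from the mitochondrial genome moved with ISO, from 9.43% to 14.3% in AGS-1 and from 9.75% to 12.4% in HGC-27. With library totals that leave those genes out, AXIN2 had −0.94 and −0.99, DKK1 −2.28 and −1.06, and LGR4 −0.11 and −0.87, in AGS-1 and HGC-27.

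**Figure D2:**
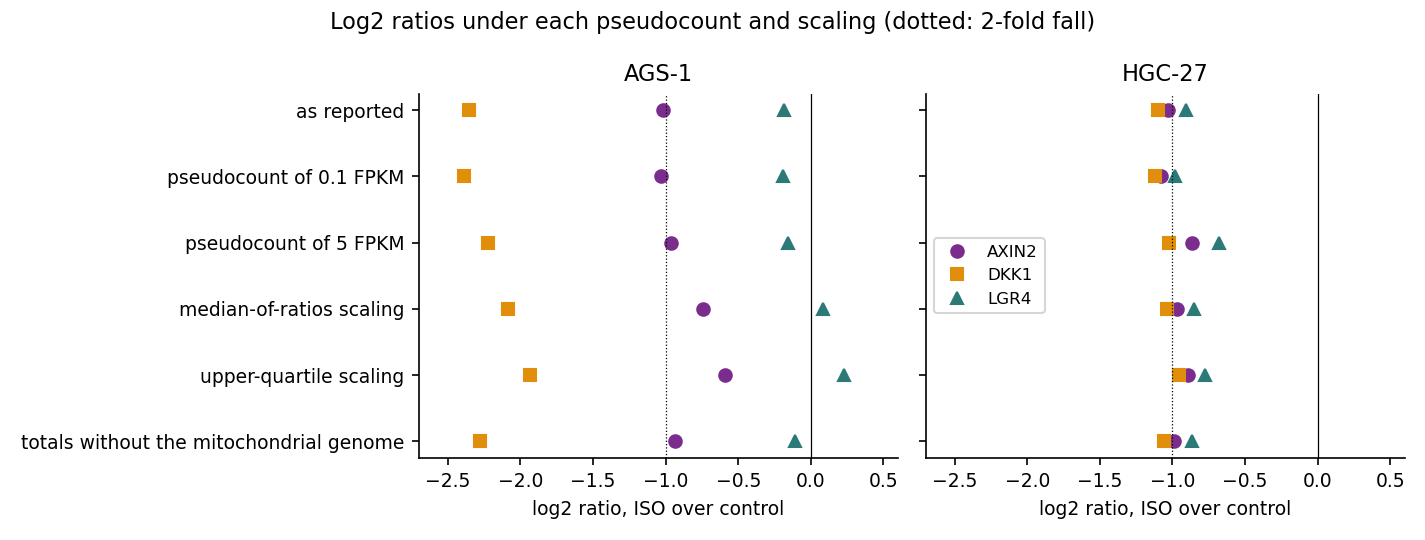
Log2 ratio of ISO over control (x axis) of AXIN2, DKK1 and LGR4 in AGS-1 (left) and HGC-27 (right) under each pseudocount and scaling (rows), with a dotted line at a 2-fold fall. DKK1 in AGS-1 stayed between −2.39 and −1.93, AXIN2 in AGS-1 lay between −1.03 and −0.59, and LGR4 in AGS-1 lay on both sides of 0.

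The fall of DKK1 was larger in AGS-1 and that of LGR4 larger in HGC-27, both beyond counting error, while that of AXIN2 differed by less than counting error in the deposited scaling. The log2 ratio in AGS-1 minus that in HGC-27 was −1.26 for DKK1 (95% counting interval −1.38 to −1.13), 0.72 for LGR4 (0.59 to 0.86) and 0.02 for AXIN2 (−0.09 to 0.12). Median-of-ratios scaling gave −1.05, 0.93 and 0.23. These differences between 2 pairs of libraries were not tested, since no degree of freedom remained for them.

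Ratios between the genes within 1 library do not depend on library scaling. DKK1 over AXIN2, as a ratio of FPKM, was 1.67 untreated and 0.649 under ISO in AGS-1, against 2.69 and 2.62 in HGC-27. LGR4 over AXIN2 was 0.214 and 0.382 in AGS-1, and 0.540 and 0.576 in HGC-27. The ratios thus moved in AGS-1 and stayed close to their control value in HGC-27. On the log2 scale DKK1 over AXIN2 changed by −1.36 in AGS-1 (95% counting interval −1.47 to −1.26) and by −0.04 in HGC-27 (−0.17 to 0.10). For LGR4 over AXIN2 the change was 0.84 in AGS-1 (0.73 to 0.94) and 0.09 in HGC-27 (−0.06 to 0.24). DKK1 over LGR4 went from 7.81 to 1.70 in AGS-1 and from 4.98 to 4.55 in HGC-27, a log2 change of −2.20 (−2.33 to −2.07) and −0.13 (−0.28 to 0.02). In HGC-27 the intervals of all 3 changes held 0, and in AGS-1 none did. These intervals hold counting error alone, for genes chosen for their fall in the same libraries, so the changes are described and not tested.

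**Figure D3:**
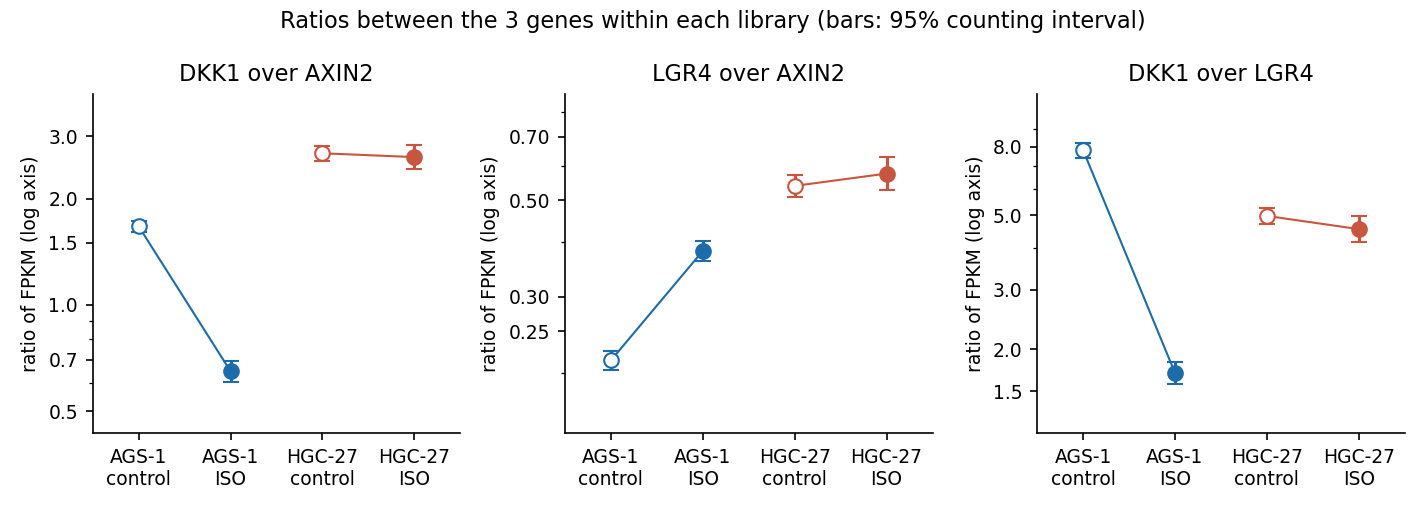
Ratio of FPKM between each pair of the 3 genes (y axis, log scale) in the 4 libraries, open points for controls and filled points for ISO, with 95% counting intervals as bars. DKK1 over AXIN2 dropped from 1.67 to 0.649 in AGS-1 and was 2.69 and 2.62 in HGC-27.

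The comparison of the cell lines was not used to choose the 3 genes. It was fitted with limma on log2(FPKM + 1) with treatment in the model, over the 2 libraries of each line, 1 of them treated. The only spread left to a gene is how far its ISO change differed between the lines, and limma pools this with other genes. The p-values thus do not measure the spread between cultures, and for the 3 genes they also rest on the ISO changes known at their choice. Of the 2883 genes tested, 56.9% differed between the lines at an adjusted p under 0.05, so a difference was the usual case. AXIN2 had a mean of 6.13 for AGS-1 and 4.40 for HGC-27, a difference of 1.74 (SE 0.20, limma adjusted p = 7.19e-06). LGR4 had 4.38 and 3.61, a difference of 0.77 (SE 0.22, limma adjusted p = 0.00994), and without treatment in the model its adjusted p by limma was 0.0951. DKK1 had 6.20 and 5.76, and the difference of 0.44 did not pass (SE 0.28, limma adjusted p = 0.200). The DKK1 mean covers 2 AGS-1 libraries that lie far apart. In the controls alone the level of DKK1 exceeded that of 92.0% of the listed genes for AGS-1 and 86.7% for HGC-27, that of AXIN2 85.5% and 52.6%, and that of LGR4 28.0% and 21.9%.

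The rest of the pathway was described with 8 lists by role, holding 149 genes besides the 3, of which 34 are in the table. In AGS-1, 3 of the 34 fell at least 2-fold and 0 rose, where 6.63% of all genes fell and 0.828% rose. In HGC-27, 1 fell and 0 rose, where 0.932% of all genes fell and 0.552% rose. The 34 genes had a median log2 ratio of −0.43 where all genes had −0.29 in AGS-1, and of −0.14 where all genes had −0.11 in HGC-27. Ratios below 0 were found for 30 of them in AGS-1 (88.2%, against 78.6% of all genes). In HGC-27 they were found for 27 (79.4%, against 64.2% of all genes). By both measures the Wnt genes lay lower than all genes, though by little in the HGC-27 median, and this was not tested. Falls as large as those of AXIN2 and DKK1 were few. With median-of-ratios scaling 1 of the 34 fell at least 2-fold in each line.

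Of the ligands and their release, WNT10B and WLS are in the table. WNT10B, a Wnt ligand, had 1.94 FPKM untreated and 0.675 FPKM under ISO in AGS-1, against 13.6 FPKM untreated and 5.88 FPKM under ISO in HGC-27. It was low in both AGS-1 libraries, with 77 and 28 fragments, and was the 1 gene of the lists past a 2-fold fall of FPKM + 1 in HGC-27, where its log2 ratio was −1.08. With 0.1 FPKM added in place of 1, the count there was 3. WLS, which carries Wnt proteins to the cell surface, had log2 ratios of −0.37 and −0.54 in AGS-1 and HGC-27.

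Of the receptors, LRP5 and PTK7 are in the table. LRP5, a co-receptor that DKK1 binds, had 82.2 FPKM untreated and 50.3 FPKM under ISO in AGS-1, against 17.6 and 17.7 FPKM in HGC-27. The log2 ratios were thus −0.70 in AGS-1 against 0.01 in HGC-27. PTK7, a co-receptor of the planar polarity branch, had −0.33 and −0.39. Of the 8 listed genes of the R-spondin axis and the 17 other listed inhibitors, 0 were found in the table used here.

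Of the destruction complex, 4 genes are in the table, the kinase CSNK1A1, the tankyrase TNKS2, which marks Axin for degradation, and the phosphatase subunits PPP2CA and PPP2R1A. Their log2 ratios lay between −0.69 and −0.38 in AGS-1 and between −0.16 and 0.01 in HGC-27. None reached the 2-fold fall of AXIN2, the other member of that complex in the table. Of the 4 genes around Dishevelled, which relays the signal from Frizzled, DVL1 had the lowest ratios, −0.71 and −0.37, and DVL3 the highest in AGS-1, 0.22. The casein kinase CSNK1G2 had −0.02 and −0.09.

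CTNNB1, the gene of β-catenin, had 55.8 FPKM untreated and 39.0 FPKM under ISO in AGS-1, against 11.6 FPKM untreated and 12.4 FPKM under ISO in HGC-27. Its log2 ratios were −0.50 and 0.09, so it did not follow the fall of AXIN2 in HGC-27. JUP, the gene of γ-catenin, was abundant in AGS-1, with 174 and 127 FPKM, and low in HGC-27, with 139 and 43 fragments. The co-repressor TLE1 had log2 ratios of −0.42 and −0.76. RUVBL2, a helicase that binds β-catenin, had −0.29 and −0.18. The medians of the 6 genes of this group were −0.42 for AGS-1 and −0.34 for HGC-27.

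Other targets of β-catenin had unlike ratios in the 2 lines. SP5 went along with AXIN2, with 104 FPKM untreated and 50.7 FPKM under ISO in AGS-1, against 6.66 FPKM untreated and 3.08 FPKM under ISO in HGC-27. That left 48.5% of the control in AGS-1 (95% counting interval 45.7 to 51.5%) and 46.2% in HGC-27 (36.7 to 57.9%), next to 48.9% and 47.2% for AXIN2. CCND1, the gene of the cell cycle regulator cyclin D1, had 289 FPKM untreated and 102 FPKM under ISO in AGS-1, against 54.4 and 54.1 FPKM in HGC-27. MET, a receptor tyrosine kinase, had 42.6 and 17.9 FPKM in AGS-1 and 7.09 and 5.10 FPKM in HGC-27. SP5, CCND1 and MET were the 3 genes past a 2-fold fall of FPKM + 1 in AGS-1, where 5 were with 0.1 FPKM added in place of 1. Of the 3, CCND1 had a log2 ratio of −0.01 in HGC-27. The transcription factor MYC had ratios of −0.97 and −0.34. JUN, a subunit of the AP-1 transcription factor with the highest mean FPKM of the targets over the 4 libraries, had −0.25 and 0.07. Over the 16 targets in the table the medians were −0.66 for AGS-1 and −0.08 for HGC-27, and 13 had a ratio below 0 in each line, or 81.2% where all genes had 78.6% and 64.2%. With median-of-ratios scaling 12 and 10 of the 16 lay below 0 in AGS-1 and HGC-27, where 1539 and 1636 of all 2897 genes did. Several, such as FOSL1, EDN1 and CLDN1, had at most 41 fragments in an HGC-27 library.

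**Figure D4:**
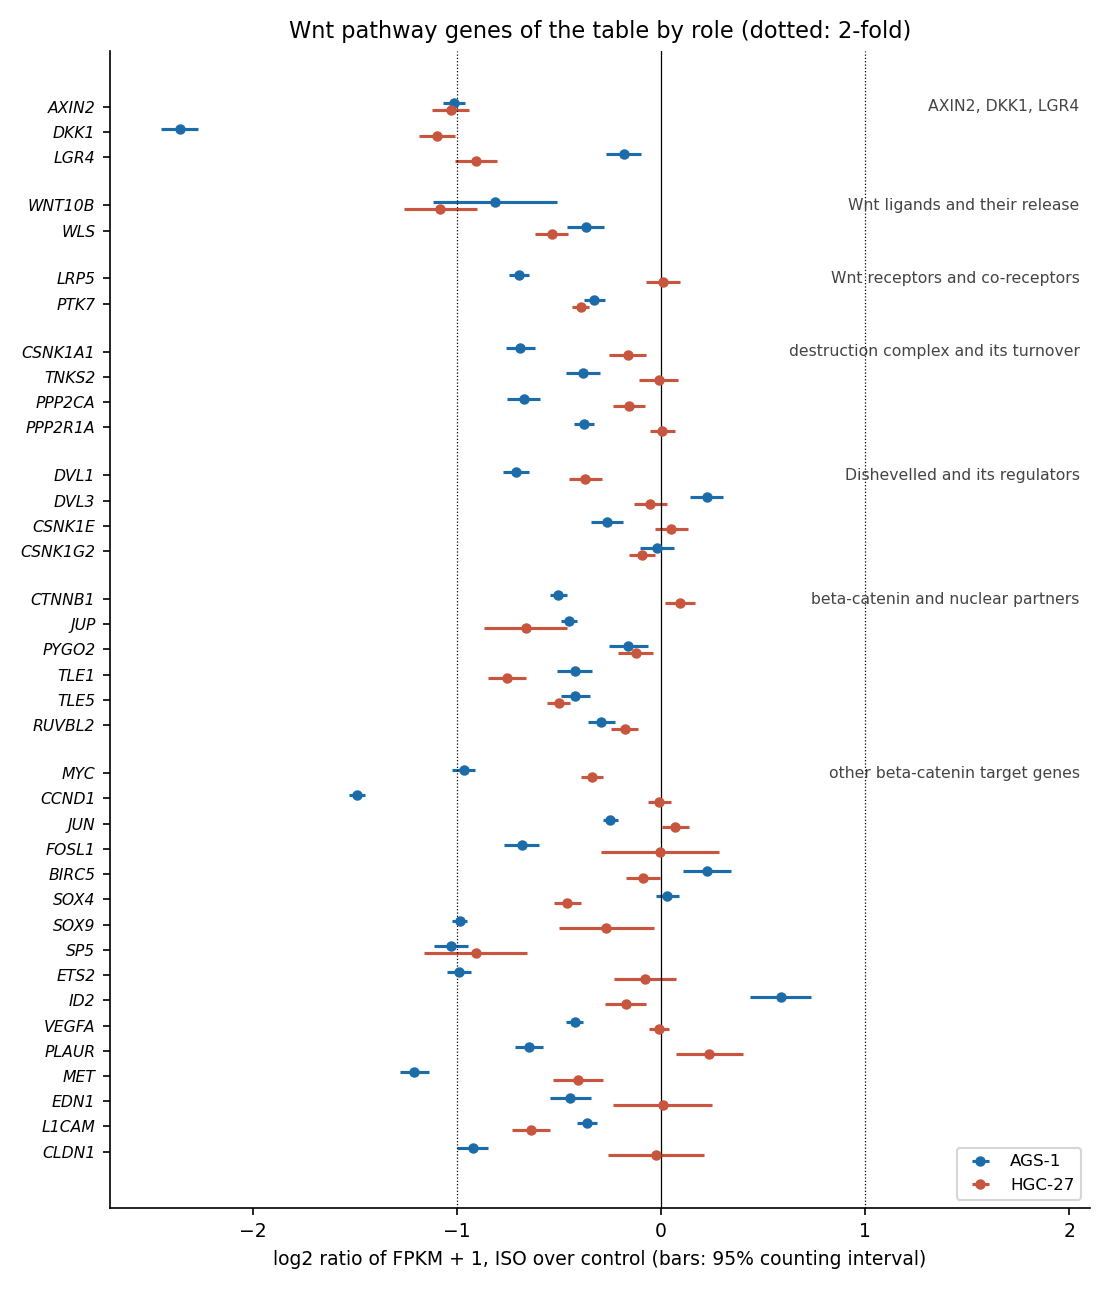
Log2 ratio of FPKM + 1, ISO over control (x axis), of AXIN2, DKK1, LGR4 and the 34 other Wnt genes of the table, grouped by role, in AGS-1 (blue) and HGC-27 (red), with 95% counting intervals as bars and dotted lines at 2-fold. Most points in AGS-1 lie left of 0, and the points of AXIN2 and SP5 lie close to −1 in both lines.

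A change shared by both lines was tested with limma on log2(FPKM + 1) over all 4 libraries, with the cell line in the model and 1 residual degree of freedom. As in the comparison of the lines, the p-values rest on how far the ISO change differed between the lines, pooled with other genes. They do not measure the spread between cultures. The shared change is not reported for AXIN2, DKK1 and LGR4, whose choice used this contrast. Of 2883 genes, 0.832% were lower and 0.104% higher under ISO at an adjusted p under 0.05. Among the 34 other Wnt genes, 1 was lower and 0 were higher, and at an unadjusted p under 0.05 these counts were 12 and 0, where 514 genes were lower and 64 higher among all 2883. The gene was SP5, which fell by 0.97 on the log2 scale (SE 0.19, limma adjusted p = 0.0334) and was lower in both lines. Its adjusted p by limma ranged from 0.00734 to 1.00 over the alternatives. Among these alternatives SP5 passed by limma only with 0.1 FPKM added in place of 1. It did not pass with median-of-ratios scaling (0.165), without the filter on low values (0.117) or without the cell line in the model.

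**Figure D5:**
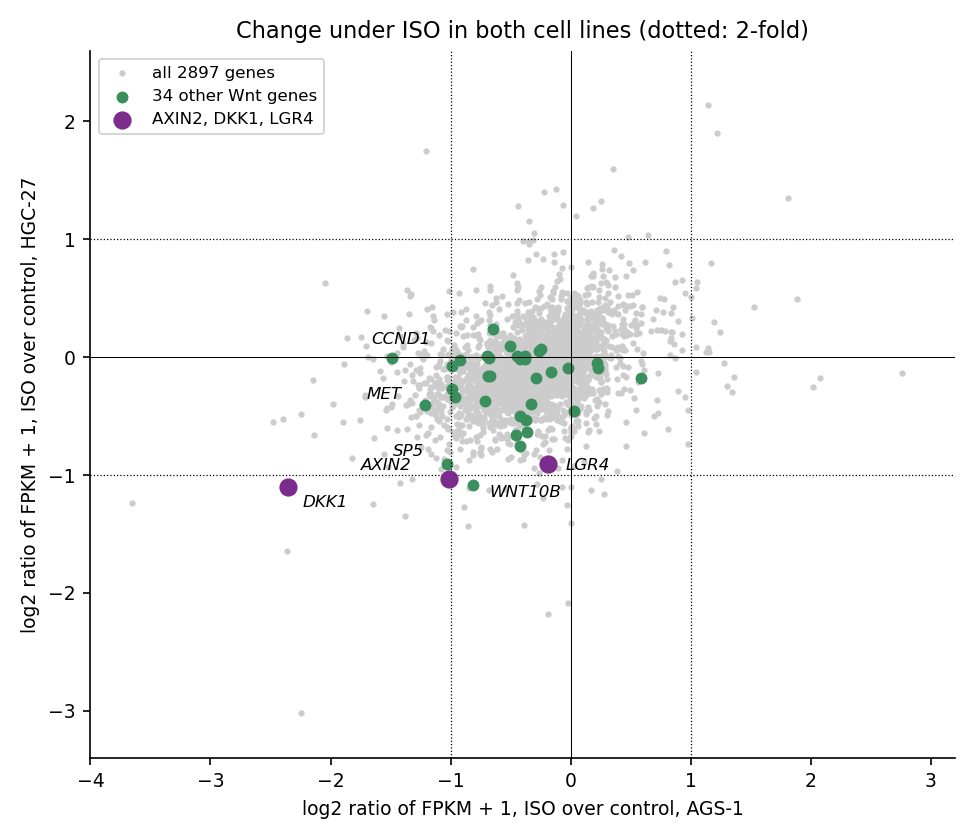
Log2 ratio of FPKM + 1, ISO over control, in AGS-1 (x axis) and HGC-27 (y axis) for all 2897 genes (grey), 34 other Wnt genes (green) and AXIN2, DKK1 and LGR4 (purple), with dotted lines at 2-fold. AXIN2 and DKK1 lie past 2-fold in both lines, and LGR4 at −0.18 in AGS-1 and −0.91 in HGC-27.

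The 3 genes had different patterns over the 4 libraries. Likeness was measured as the Euclidean distance between log2(FPKM + 1) values centred on each gene's mean, among the 2883 genes. AXIN2 and LGR4 lay 1.14 apart, DKK1 and LGR4 1.58, and AXIN2 and DKK1 1.61. Each had nearer genes outside the pathway lists. Nearest to AXIN2 were MYL9, a myosin light chain (0.12), PROCR, a receptor for protein C (0.22), and SLC1A5, a glutamine transporter (0.33). Near DKK1 lay CTNNAL1 (0.58) and FHL3 (0.62). CITED2, a transcriptional regulator (0.17), TMEM129 (0.21) and TOMM40, a pore of the mitochondrial import machinery (0.27), were nearest to LGR4. With 4 libraries such distances describe these samples only.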

How the data were processed

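Messenger RNA libraries of 4 samples were read on a NextSeq instrument. The values deposited are FPKM, in 1 table. The submitters' processing notes name CASAVA 1.8, HISAT2 and GRCh38 or hg38. The counting tool, the annotation and the rule by which the 2897 genes were listed are not given in the sources used here, and 98.1% of them had a mean of at least 10 FPKM. Multiplying FPKM by gene length gave whole fragments for 100% of values (tolerance 0.01 fragments times the square root of the count). The tolerance widens with the count, so at high counts any value passes, as for AXIN2 with 7871 fragments in the AGS-1 control. For such counts the 100% does not show that the values are whole fragments, and only lower counts could fail. The library totals and counting intervals were derived from these fragments.

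Log2 ratios were taken of FPKM + 1 in the deposited scaling, and a change meant at least 2-fold. Intervals (95%) were exact for fragments, and for ratios given the sum of both counts. Those of log2 ratios, of their differences between the lines and of log2 changes of ratios were normal approximations from the counts. All cover counting error only. limma 3.58.1 in R 4.3.3 (trend, Benjamini-Hochberg, mean of at least 1 FPKM) fitted cell line and treatment. It was also run on simulated data whose changes were large and equal in both lines. Smaller changes, and changes that differ between the lines, were not covered. The cell line pairs each ISO library with its control. Python 3.11.15 with numpy 2.4.6, pandas 2.3.3 and scipy 1.17.1 did the rest.

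The members and the gene lists were chosen with earlier results of these data known. Besides the 3 members, genes were named when they changed at least 2-fold in either line, were among the 2 most abundant of their list, belonged to a fixed set of pathway genes, or were 1 of the 3 nearest in pattern to a member. A gene that the rule names is not reported here. Genes given only as the highest or lowest of their list, or for their low fragments, were picked after their values were seen, as were the promoter windows. RefSeq windows were found for DKK1, LGR4 and SP5. AXIN2 had no window in the table.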

Additional observations from a re-analysis of the deposited data

Results flagged for a closer look

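In CTNNB1 the log2 ratio of ISO over control was below 0 in AGS-1 and above 0 in HGC-27, a difference of −0.60 between the lines. The same held for PLAUR, the gene of the urokinase receptor, with a difference of −0.88 (58.1 to 36.8 FPKM in AGS-1 and 4.32 to 5.27 FPKM in HGC-27). Both directions exceeded counting error under the deposited, median-of-ratios and upper-quartile scalings. With 1 library per condition, the difference between the lines was not tested.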

How the results depend on the processing

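Of the recomputed values, 49 kept their side of the threshold, or stayed within counting error or 1.5 times the count, 33 moved further and 4 lost their call. With a pseudocount of 5 FPKM, AXIN2 had −0.96 in AGS-1 and −0.86 in HGC-27, DKK1 −2.22 in AGS-1 and LGR4 −0.68 in HGC-27. Median-of-ratios scaling gave −0.74 for AXIN2, −2.08 for DKK1 and 0.081 for LGR4 in AGS-1. Upper-quartile scaling gave −0.59, −1.93 and 0.22 in AGS-1 and −0.89, −0.95 and −0.78 in HGC-27. Totals without the mitochondrial genome, chosen after the data were seen, gave AXIN2 −0.94 in AGS-1. The count of Wnt genes changed at least 2-fold, 3 in AGS-1, was 5 with a pseudocount of 0.1 FPKM and 1 with either other scaling. In HGC-27 it was 1, against 3 with a pseudocount of 0.1, and 0 with a pseudocount of 5, upper-quartile scaling or a mean of at least 10 FPKM. Of all genes, 216 changed in AGS-1, and 122 with median-of-ratios and 102 with upper-quartile scaling. In HGC-27 43 did, and 73 and 27 with pseudocounts of 0.1 and 5. The shared change by limma was found for 27 genes, and for 107 with a pseudocount of 0.1, 6 without a filter, and 0 with median-of-ratios scaling or without the cell line as a block (511 and 15 at an unadjusted p under 0.05). For the Wnt genes it was 1, against 3 with that pseudocount and, by limma, 0 without a filter, with median-of-ratios scaling or without the block (12, 6 and 0 unadjusted). Without treatment as a block the line difference of LGR4, 0.77, no longer passed by limma (adjusted p = 0.0951). The cause of these shifts was not tested. The block is the cell line, and the labels give no replicate numbers. Leaving out a library was not run, since 1 library per condition leaves no residual degree of freedom. Genes near 0 in 1 line, such as FOSL1 in HGC-27, rest on few fragments there.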
